A study of Mus musculus with 9 samples.

Results

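The genes described here are type I interferon-stimulated genes, taken from a list of 42 named antiviral and regulatory genes and followed in the salivary glands of lean, obese and operated mice. Of these 42 genes, 40 were in the deposited table of 23256 genes, and all 40 were among the 14912 genes that passed the filter on low counts. Mx1 and Mx2 were not analysed here. The list goes by gene name and not by a measured value. It and the other gene lists below were, however, chosen with earlier results of these data known. Counts and shares set beside all genes are therefore descriptive.

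RNA of the submandibular and sublingual glands came from female C57BL/6 mice aged 34 weeks, with 3 libraries in each of 3 groups. The control group ate chow, with a listed diet start of 4 weeks of age and a length of 20 weeks. The DIO group (diet-induced obesity) was given a diet with 60% of its calories from fat, starting at 4 weeks of age and lasting 20 weeks. The SG group consisted of DIO mice that had about 80% of the stomach removed at 24 weeks of age, under isoflurane and after a fast (sleeve gastrectomy). The labels name no sham operation. They give neither the diet after surgery nor the diets of control and DIO mice once the 20 weeks had ended. Surgery, fasting, anaesthesia and the diet after surgery thus cannot be told apart in SG. Whether each library is its own animal is not stated in the labels either, and the p-values cover the variation among libraries, some of which may be technical.

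Type I interferons are secreted proteins that cells make on sensing viral or misplaced nucleic acid. They bind a receptor built from IFNAR1 and IFNAR2, which activates the kinases JAK1 and TYK2. These phosphorylate STAT proteins, STAT2 among them, which join IRF9 in the complex ISGF3. ISGF3 binds the interferon-stimulated response element (ISRE) before its target genes, whose products detect viral RNA, block translation, degrade RNA or hold back virus entry and release. Many of the same genes also respond to interferon gamma, in part through IRF1. In salivary glands, interferon-stimulated genes are best known from Sjögren's disease, an autoimmune disease of exocrine glands.

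The ISRE is visible in the promoters of many of these genes, so the promoter letters are shown before the values. In the RefSeq promoter table (build GRCm38.p6, 250 bases before to 50 after each start site), 32 of the 40 genes had an entry, with 43 promoters between them. The deposited files use GRCm39, so positions in GRCm38.p6 apply to the printed letters only. The ISRE core was searched as GAAA, any 2 bases and GAAA, and the gamma-activated site of the interferon gamma response (GAS) as TTC, any 3 bases and GAA, both on either strand and with overlapping matches counted. The ISRE core was in 16 of 43 promoters of interferon-stimulated genes (37.2%) and in 3.44% of all 32851 promoters of the same length. By gene, 15 of 32 (46.9%) held it in at least 1 promoter, beside 3.99% of all 27025 genes. The GAS core was in 9 of 43 promoters (20.9%), beside 8.3% of all promoters. A match describes the letters and does not show that a factor was bound.

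The 250 bases before the start sites of Isg15 and Oas1a are shown because both hold overlapping ISRE cores, in capitals, read 5′ to 3′ on the gene's strand. In Isg15 the cores begin 78, 72 and 66 bases before the start site, and in Oas1a they begin 20 and 14 bases before it.

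Isg15, chr4:156200819-156201068, minus strand: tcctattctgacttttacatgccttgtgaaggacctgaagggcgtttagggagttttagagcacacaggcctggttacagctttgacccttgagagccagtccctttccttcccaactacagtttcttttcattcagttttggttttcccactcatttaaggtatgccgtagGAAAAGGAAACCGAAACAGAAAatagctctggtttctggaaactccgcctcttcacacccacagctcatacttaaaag

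Oas1a, chr5:120907526-120907775, minus strand: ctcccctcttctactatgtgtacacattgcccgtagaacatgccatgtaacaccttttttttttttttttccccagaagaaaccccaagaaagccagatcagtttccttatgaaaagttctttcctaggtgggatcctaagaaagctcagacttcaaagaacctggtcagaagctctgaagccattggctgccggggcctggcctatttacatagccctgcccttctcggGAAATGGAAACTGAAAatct

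Shorter windows of 6 further genes show how the core recurs, again with the matches in capitals and with 8 flanking bases on each side. Where the core lies on the other strand it reads TTTC, any 2 bases and TTTC.

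Ifit1, chr19:34640777-34640821, plus strand: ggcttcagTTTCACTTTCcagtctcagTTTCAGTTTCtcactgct

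Ifit3, chr19:34583365-34583424, plus strand: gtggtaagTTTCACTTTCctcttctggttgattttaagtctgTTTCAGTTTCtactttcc

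Ifit3b, chr19:34607761-34607820, plus strand: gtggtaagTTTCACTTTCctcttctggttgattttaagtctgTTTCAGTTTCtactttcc

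Bst2, chr8:71537579-71537610, minus strand: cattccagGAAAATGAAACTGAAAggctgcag

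Rsad2, chr12:26456555-26456580, minus strand: ggtccaacTTTCATTTTCagaaaaca

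Oas3, chr5:120777717-120777742, minus strand: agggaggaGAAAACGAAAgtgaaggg

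The windows of Ifit3 and Ifit3b were identical at 60 of 60 bases. These 2 genes are near-identical neighbours, and how reads that match several genes were counted is not given in the sources used here, so their separate levels are uncertain. The same holds for Oas1a, for Trim30a and for Ifi27l2a, which have close paralogs. Rsad2 and Cmpk2, and Parp9 and Dtx3l, are neighbouring genes, and the strand setting of the counting is not given either.

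Library totals ran from 36349885 counts (DIO 2) to 43495564 (control 2), and 3 counts corresponded to between 0.0676 and 0.0833 CPM, the usual depth-scaled count unit, here on TMM-scaled library sizes. The sum of 18 submandibular and sublingual gland markers ran from 135590 to 181160 CPM, and all 18 were present in every library. Control 2 stood apart, with a mean rank correlation with the other libraries of 0.973 where the others had 0.985 to 0.987. It had the highest sums of B cell, T and NK cell, macrophage and dendritic cell and pan-leukocyte markers, but not of plasma cell markers. Its sums of adipocyte markers (149 CPM) and endothelial markers (225 CPM) were also the highest. SG 2 held 41.5 CPM of skeletal muscle markers, beside 3.03 to 5.27 CPM elsewhere, and 402 CPM of red blood cell markers. Results that rest on these libraries are given with and without them below.

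Interferon-stimulated genes were expressed at modest levels in every group. They held between 0.0812% and 0.128% of a library's counts, with 0.0812%, 0.0873% and 0.0859% in control libraries 1 to 3, 0.128%, 0.112% and 0.102% in DIO, and 0.102%, 0.0820% and 0.0847% in SG. On the per-length FPKM scale, averaged over 9 libraries, 10 genes were at or above 10, 25 lay from 1 to under 10, and 5 were under 1. Their median level was 3.89 FPKM, beside 2.81 FPKM for all genes tested. Ifi27l2a, which encodes a small interferon-induced membrane protein, was the most abundant, with a mean of 170 FPKM and a range of 87.1 to 308 over libraries. Ifitm3, which hinders virus entry at endosomal membranes, followed at 54.6 FPKM (41.5 to 72.1), and Shisa5, a membrane protein linked to cell death, at 29.8 FPKM. Sp100 (20.5), Bst2 (20.5) and Lgals3bp (20.2) came next, and their ranges over libraries overlapped. At the other end, Oas2 had a mean of 0.349 FPKM and Oas3 of 0.208 FPKM, both synthases of the messenger that activates RNase L.

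**Figure D1:**
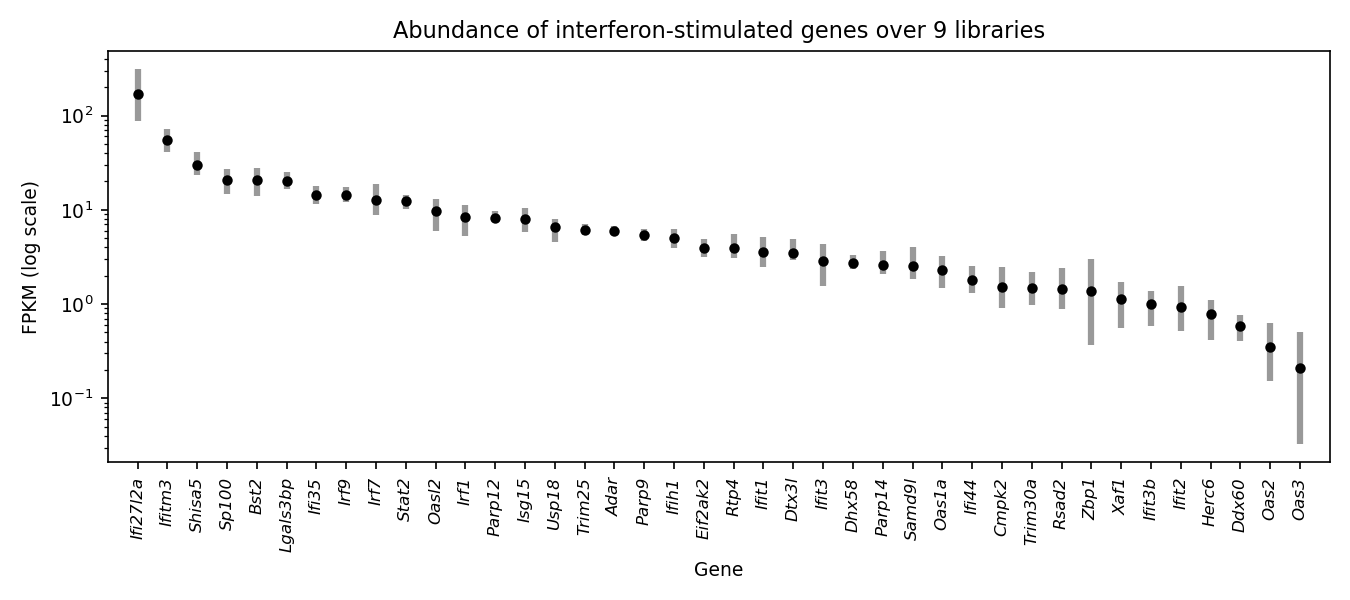
Mean FPKM (points, log scale) and the range over 9 libraries (grey bars) of 40 interferon-stimulated genes in order of abundance. Ifi27l2a lies above 87.1 FPKM in every library, and Oas3 ranges from 0.0331 to 0.51 FPKM.

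The first comparison, DIO against control, sets obese mice given a fat-rich diet against mice on chow. Obesity and the diet itself cannot be told apart in it. By group mean, interferon-stimulated genes were nearly all at a higher level in DIO, by small amounts, but none passed the test on its own. The fitted log2 fold change was above 0 for 39 of 40 genes, beside 51.7% of all genes tested, and the exception was Shisa5 (-0.01). The median over the 40 genes was 0.27, beside 0.01 for all genes, and the range ran from -0.01 to 1.33 (Oas3). In edgeR's quasi-likelihood test with Benjamini-Hochberg adjustment over all genes, 0 of 40 passed an adjusted p of 0.05, beside 0.0939% of all genes, and the smallest adjusted p was 0.116 (Ifi27l2a). At an unadjusted p under 0.05, 13 of 40 were higher in DIO, beside 5.22% of all genes. In 15 of 40 genes every DIO library lay above every control library, beside 8.94% of all genes.

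DESeq2 called 2 of the 40 genes in the same comparison, Ifi27l2a (adjusted p = 6.92e-05) and Cmpk2 (adjusted p = 0.0324), among 194 genes in all, while limma-voom called 0. Leaving out DIO 1 lowered the median to 0.17 and the number at an unadjusted p under 0.05 from 13 to 6, beside 3.33% of all genes in that fit. Without DIO 2 that number was 8, beside 3.62%. Without DIO 3 the groups did not overlap for 26 of 40 genes, beside 15% of all genes. Without control 2 the median was 0.26, with 36 of 40 genes above 0, beside 50% of all genes.

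**Figure D2:**
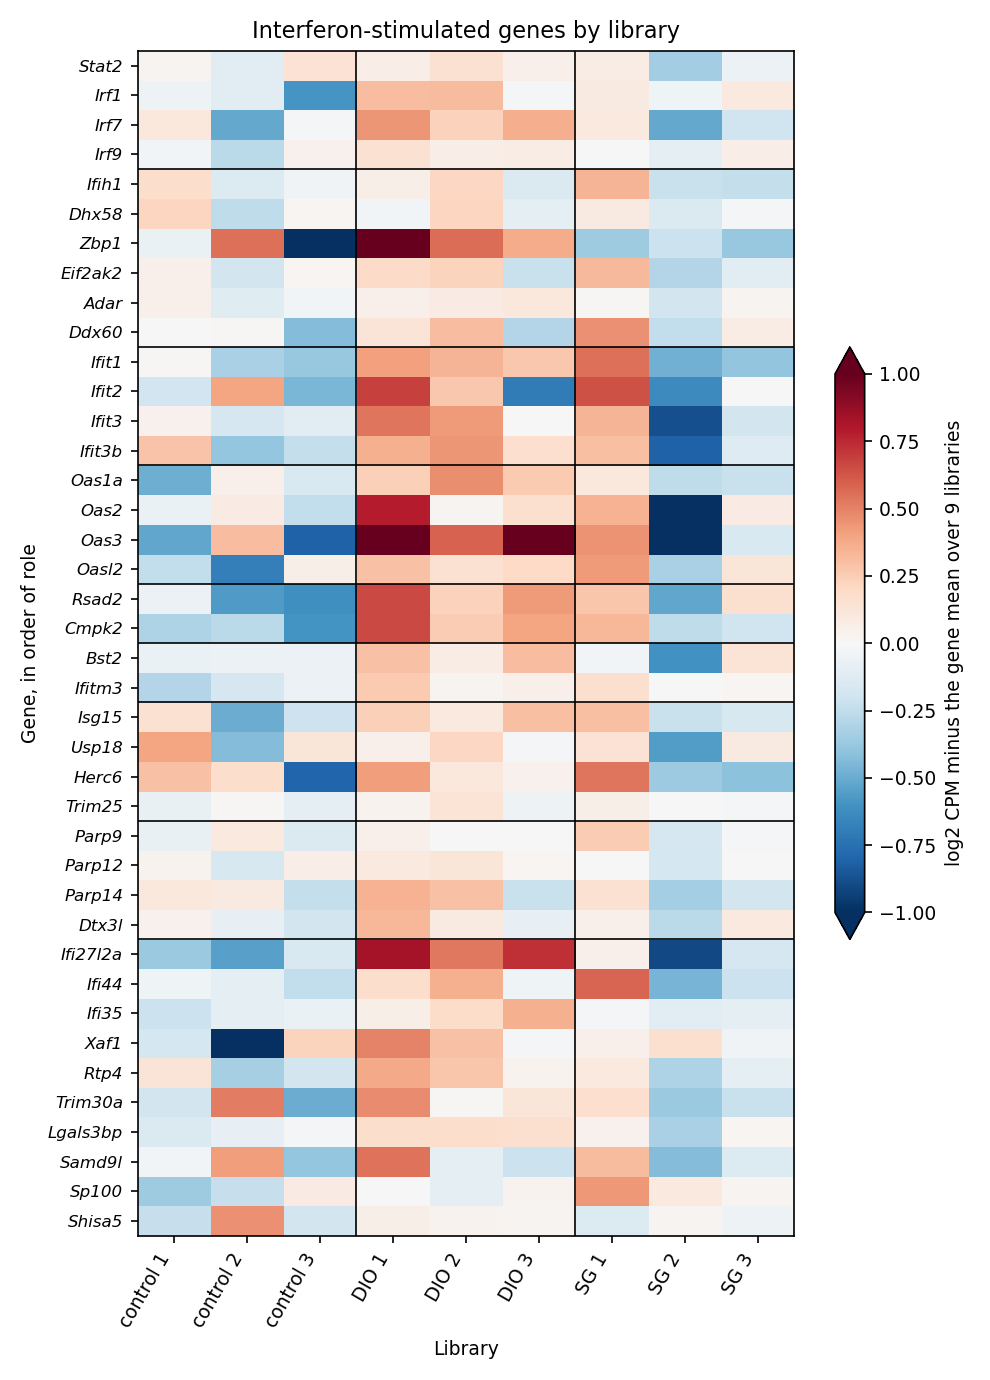
Log2 CPM of 40 interferon-stimulated genes (rows, grouped by role) in 9 libraries (columns), each gene minus its mean over libraries, with colours saturating at -1 and 1. DIO 1 is the column highest for the most genes (17), and SG 2 is the column lowest for the most (19).

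By library, DIO 1 held the highest level of 9 libraries for 17 of 40 genes, beside 10.9% of all genes. SG 1 held it for 10, DIO 2 for 7, DIO 3 for 3, and the control libraries for 3 between them. The mean log2 deviation of the 40 genes from their own means was -0.05, -0.12 and -0.22 in control libraries 1 to 3, and 0.35, 0.21 and 0.10 in DIO libraries 1 to 3. All 3 DIO libraries thus lay above all 3 control libraries on this summary. Summed over genes, the levels were 855 to 888 CPM in control and 1062 to 1155 CPM in DIO. A large part of the gap between these sums came from Ifi27l2a alone, whose group means are given below.

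Signal transducers and regulatory factors came first in the pathway. All 4 had a fold change above 0, with a median log2 value of 0.31, and none passed the adjusted test. The groups did not overlap for 3 of them, beside 8.94% of all genes. The median was 0.18 without control 2. Irf7 (NCBI gene 54123), the factor that amplifies interferon production, measured 25.6, 16.7 and 23.5 CPM in control libraries 1 to 3, 32.4, 27.9 and 30.6 CPM in DIO, and 25.4, 16.6 and 20.8 CPM in SG. Every DIO library lay above every library of both other groups, and the log2 fold change against control was 0.47 (SE 0.17, adjusted p = 0.381).

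Irf1 (16362), a factor induced by interferon gamma and by type I interferon, was at 26.8, 25.7 and 18.5 CPM in control, 34.3, 34.6 and 27.4 CPM in DIO, and 29.5, 27 and 29.6 CPM in SG. DIO lay above control without overlap, though DIO 3 was close to control 1, and the log2 fold change was 0.44 (SE 0.14, adjusted p = 0.307). Irf9 (16391), the DNA-binding part of ISGF3, measured 37.2, 31.5 and 39 CPM in control, 42.1, 39.6 and 40 CPM in DIO, and 37.8, 35.7 and 39.7 CPM in SG, a log2 difference of 0.18 (SE 0.09, adjusted p = 0.541) in DIO. The gap between the lowest DIO and the highest control library was small for Irf9. Stat2 (20847), the STAT that belongs to ISGF3 only, read 56.1, 50.6 and 60.7 CPM in control, 57.4, 61.1 and 56.7 CPM in DIO, and 57.7, 43.2 and 52.8 CPM in SG. Its control and DIO libraries overlapped (log2 fold change 0.07, SE 0.11, adjusted p = 0.89), and the sign turned to -0.02 without control 2.

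Sensors of viral nucleic acid showed the smallest differences, with a median log2 value of 0.11 over 6 genes, all above 0 and all with overlapping groups. Without control 2, as without DIO 2, 4 of the 6 were above 0, with medians of 0.03 in both cases. Ifih1 (71586), the cytosolic sensor MDA5 for long double-stranded RNA, was at 31.8, 25.7 and 27.5 CPM in control, 29.4, 32.6 and 25.5 CPM in DIO, and 35.6, 24.1 and 24 CPM in SG. These values interleaved (log2 fold change 0.04, SE 0.16, adjusted p = 0.959). Dhx58 (80861), the regulator LGP2 of the same sensor family, had the smallest value of the group at 0.04 (SE 0.16, adjusted p = 0.968), with levels from 5.7 to 7.89 CPM over 9 libraries. Zbp1 (58203), a sensor of left-handed nucleic acid that can start cell death, had the largest, at 2.45, 3.76 and 0.818 CPM in control, 5.85, 3.77 and 3.33 CPM in DIO, and 2.01, 2.21 and 1.97 CPM in SG. Its control libraries spread widely and control 2 reached the DIO range (log2 fold change 0.88, SE 0.43, adjusted p = 0.525). The other 3 were Adar, Ddx60 and Eif2ak2.

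The IFIT genes encode proteins that bind foreign RNA and block its translation. All 4 were above 0 with a median log2 value of 0.42, and only Ifit1 had groups that did not overlap, beside 8.94% of all genes. Ifit1 (15957) measured 9.23, 7.3 and 7.02 CPM in control, 12.2, 11.6 and 11 CPM in DIO, and 13.4, 6.54 and 6.97 CPM in SG. The DIO libraries lay close together above control, and SG split, with SG 1 above all DIO libraries and the other SG libraries below all control libraries (log2 fold change of DIO against control 0.56, SE 0.24, adjusted p = 0.455). Ifit3 (15959) also had its highest SG level in SG 1, at 7.5, 6.49 and 6.73 CPM in control, 10.6, 9.83 and 7.32 CPM in DIO, and 9.22, 3.97 and 6.41 CPM in SG (0.42, SE 0.26, adjusted p = 0.615). DIO 3 of Ifit3 fell within the control range. Ifit3b (667370) was lower throughout, from 1.25 to 2.96 CPM, with a log2 value of 0.41 (SE 0.31, adjusted p = 0.699). Ifit2 (15958) had the smallest value of the family, 0.23 (SE 0.39, adjusted p = 0.89), with levels from 2.32 to 6.04 CPM over 9 libraries, and it turned to -0.11 without DIO 1.

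The OAS family makes 2′-5′ oligoadenylate, which switches on RNase L. Its 4 genes were all above 0, with a median log2 value of 0.49. Of them, 3 had groups that did not overlap, beside 8.94% of all genes. Oas1a (246730) read 3.09, 4.48 and 3.9 CPM in control, 5.12, 5.97 and 5.18 CPM in DIO, and 4.65, 3.63 and 3.72 CPM in SG. DIO lay above both other groups in every library (log2 fold change against control 0.50, SE 0.19, adjusted p = 0.401). Oas3 (246727) had the largest value of all 40 genes and was also the least abundant, at 0.559, 0.991 and 0.457 CPM in control, 2.26, 1.21 and 1.62 CPM in DIO, and 1.09, 0.156 and 0.722 CPM in SG. Its log2 fold change of 1.33 had a wide error (SE 0.57, adjusted p = 0.455). Oas2 (246728) ranged from 0.597 to 2.31 CPM and its groups overlapped (0.43, SE 0.39, adjusted p = 0.751). Oasl2, an OAS-like protein, was the fourth gene.

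Rsad2 and Cmpk2, which lie side by side in the genome, showed 2 of the 5 largest fold changes among the 40 genes. Rsad2 (58185) encodes viperin, an enzyme that makes a chain-terminating nucleotide, and Cmpk2 (22169) is a nucleotide kinase. Rsad2 measured 5.03, 3.54 and 3.44 CPM in control, 8.3, 6.16 and 7.07 CPM in DIO, and 6.38, 3.66 and 5.86 CPM in SG, a log2 difference of 0.84 for DIO (SE 0.24, adjusted p = 0.262). Cmpk2 was at 3.67, 3.78 and 3.01 CPM in control, 7.19, 5.42 and 5.98 CPM in DIO, and 5.74, 3.82 and 3.97 CPM in SG, a log2 difference of 0.83 (SE 0.21, adjusted p = 0.212). In both genes every DIO library exceeded every control library. The SG libraries of Rsad2 ran from the control range into the DIO range. For Cmpk2 every SG library lay above every control library, and SG 1 lay in the DIO range.

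The membrane restriction factors were above control by a similar amount in both cases, with a median log2 value of 0.29. Bst2 (69550), the tetherin that holds budding virus at the cell surface, measured 15.6, 15.6 and 15.7 CPM in control, 20, 17.1 and 20.2 CPM in DIO, and 16, 10.7 and 17.9 CPM in SG. The 3 control libraries were nearly equal and lay below all DIO libraries (0.29, SE 0.16, adjusted p = 0.571). Ifitm3 (66141) was at 28.7, 31.2 and 33.6 CPM in control, 42.1, 35.7 and 36.3 CPM in DIO, and 39.1, 34.9 and 35.6 CPM in SG. Here the SG libraries, like DIO, all lay above control (DIO against control 0.29, SE 0.09, adjusted p = 0.319).

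ISG15 is a ubiquitin-like protein that is joined to other proteins by enzymes that include HERC6 and TRIM25 and is removed by USP18. The 4 genes had a median log2 value of 0.16, with overlapping groups in all 4. That median was 0.06 without control 3, 0.08 without DIO 1 and 0.32 without control 1. Isg15 (100038882) was at 6.65, 4.26 and 5.2 CPM in control, 7.09, 6.42 and 7.38 CPM in DIO, and 7.39, 5.14 and 5.36 CPM in SG, and control 1 reached the DIO range (0.38, SE 0.20, adjusted p = 0.556). Usp18 (24110), which also blocks the receptor itself, was at 15, 8.49 and 12.5 CPM in control, 11.8, 13.2 and 11.3 CPM in DIO, and 12.6, 7.79 and 12.2 CPM in SG. The DIO libraries of Usp18 lay inside the control range (0.02, SE 0.22, adjusted p = 0.988), and its sign changed under other scalings.

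The PARP group adds ADP-ribose to proteins, and Dtx3l is the ubiquitin ligase that pairs with Parp9. The median log2 value of these 4 genes was 0.13, and all groups overlapped. With DIO 1 left out that median came to 0.05, with DIO 2 left out to 0.07, and with DIO 3 left out to 0.21. Parp9 (80285) had the smallest value, 0.06 (SE 0.11, adjusted p = 0.908), with levels from 16.5 to 22.1 CPM over 9 libraries. Parp14 (547253) lay between 17.2 and 27.7 CPM (0.17, SE 0.17, adjusted p = 0.791). Dtx3l (209200) had the largest value of the group, 0.20 (SE 0.13, adjusted p = 0.651), with levels from 14.9 to 22.6 CPM, and Parp12 was the fourth gene.

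Ifi27l2a (76933) had the smallest p of all 40 genes. It measured 106, 94.9 and 124 CPM in control libraries 1 to 3, 245, 199 and 229 CPM in DIO, and 143, 73.7 and 123 CPM in SG. The DIO mean was 224 CPM ± 23.6 (SD, n = 3 libraries), beside 108 ± 14.8 in control and 113 ± 35.6 in SG. No library of either other group came near the lowest DIO library, and the log2 fold change against control was 1.05 (SE 0.21, adjusted p = 0.116 in edgeR's quasi-likelihood test). The call depended on the analysis, since the adjusted p was 0.0425 with the replicate number as a block. With 1 library left out, the adjusted p ran from 0.0347 (without SG 2) to 0.479 (without DIO 1).

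Among the other interferon-stimulated genes, Ifi35 (70110), whose product pairs with the protein NMI, read 16.8, 18.2 and 18.6 CPM in control, 20.3, 22.1 and 25 CPM in DIO, and 19.3, 18.1 and 18.3 CPM in SG. DIO stood above both other groups in every library (0.33, SE 0.09, adjusted p = 0.266). Lgals3bp (19039), a secreted glycoprotein that binds galectins, was at 41.6, 43.4 and 45.3 CPM in control, 51.9, 51.9 and 51.5 CPM in DIO, and 47.3, 36.6 and 46.7 CPM in SG. The DIO values were nearly equal and above every other library (0.25, SE 0.10, adjusted p = 0.41). Trim30a (20128), a TRIM protein that restrains Toll-like receptor signalling, ranged from 4.11 to 8.27 CPM with overlapping groups (0.21, SE 0.26, adjusted p = 0.834). Its value was 0.01 without control 3, 0.04 without DIO 1 and 0.53 without control 2.

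Shisa5 (66940) was at 69.9, 113 and 72.4 CPM in control, 85.2, 83.8 and 83.7 CPM in DIO, and 74.5, 83.4 and 79.2 CPM in SG. Control 2 alone was high, and the fold change of -0.01 (SE 0.16, adjusted p = 0.988) turned to 0.22 without it and to 0.07 when library totals replaced TMM scaling. The remaining genes of this group were Ifi44, Rtp4, Samd9l, Sp100 and Xaf1. Over all 10, the median log2 value was 0.28, 9 were above 0, and 4 had groups that did not overlap, beside 8.94% of all genes.

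Single libraries moved the fold changes of other genes named above by more than 1.5 times. Without control 2, Irf7 was at 0.28, Irf9 at 0.07, Isg15 at 0.21, Ifit3b at 0.26 and Zbp1 at 1.39. Without control 3, Irf1 was at 0.29 and Zbp1 at 0.47. Without DIO 1, Oas2 was at 0.15, Ifitm3 at 0.19, Zbp1 at 0.58, Dtx3l at 0.06 and Parp14 at 0.04. Parp14 was at 0.33 without DIO 3, Parp9 ran from 0.00695 without control 3 to 0.11 without control 2, and Ifit3b was at 0.64 without control 1. All of these values were above 0.

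**Figure D3:**
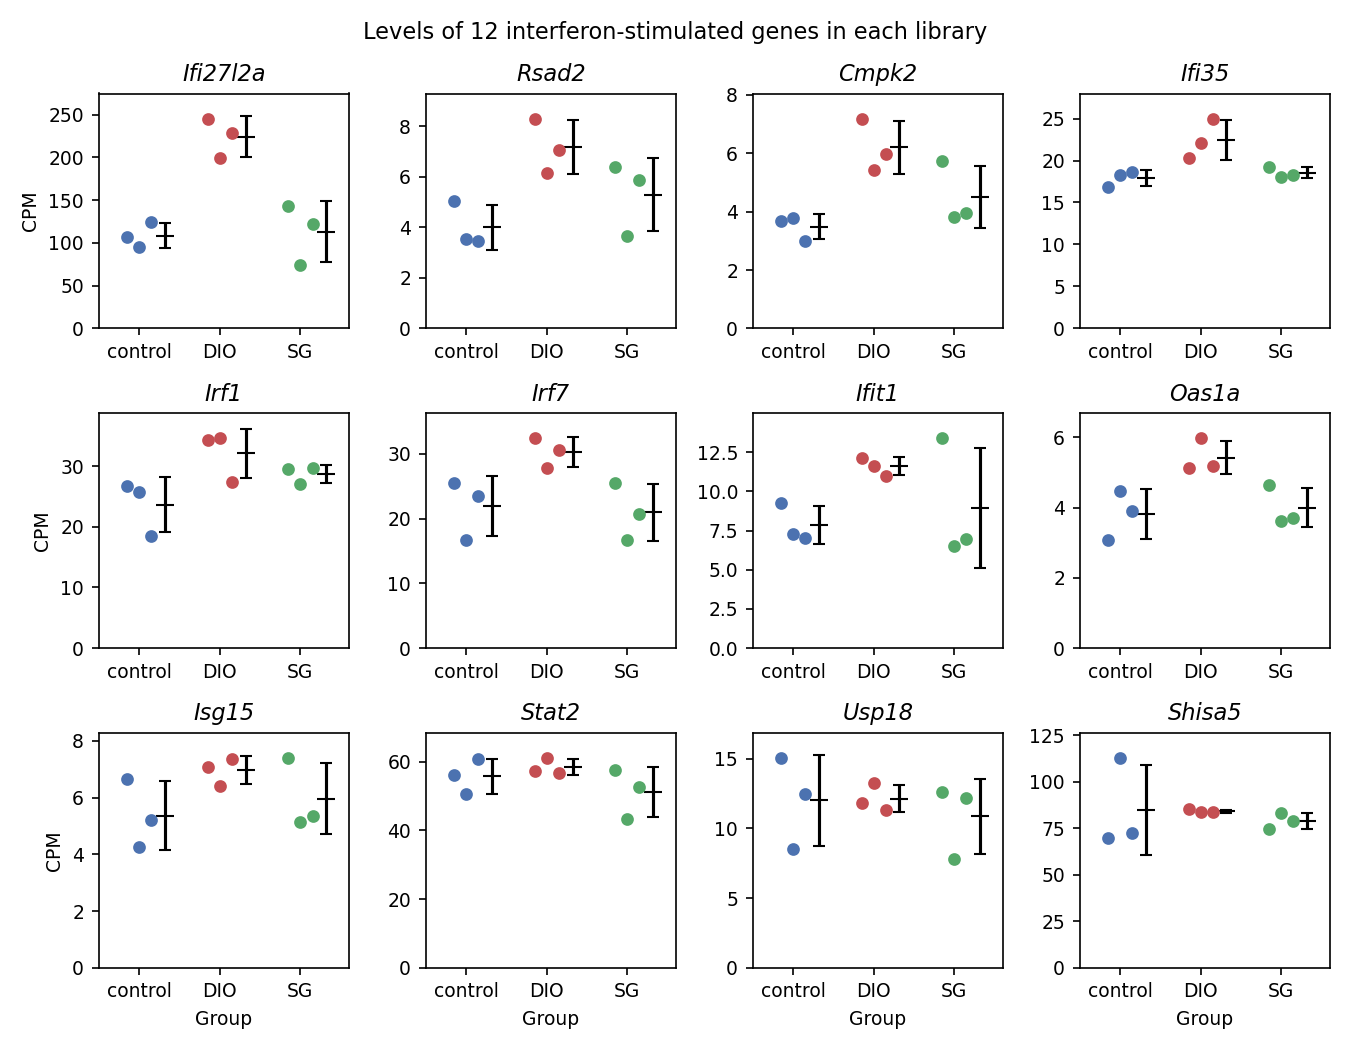
CPM of 12 interferon-stimulated genes in each library (points, replicates 1 to 3 from left to right), with the group mean and SD in black and n = 3 libraries per group. DIO stands above control without overlap in 8 of the 12 genes, beside 8.94% of all genes, and SG 1 lies apart from the other SG libraries in Ifit1.

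The second comparison, SG against DIO, asks what sleeve gastrectomy changes in obese mice. Most interferon-stimulated genes were at a lower level in SG, again with none past the test, and the 3 SG libraries differed strongly among themselves. The log2 fold change was below 0 for 37 of 40 genes, beside 51% of all genes, and the 3 above 0 were Sp100, Ddx60 and Parp9. The last 2 of these fell below 0 with library totals as the scaling. The median was -0.20, beside -0.00467 for all genes, and the range ran from -1.36 (Oas3) to 0.21. In edgeR's quasi-likelihood test 0 of 40 passed, beside 0% of all genes, with a smallest adjusted p of 0.301. DESeq2 called 1 (Ifi27l2a, adjusted p = 0.000501), among 86 genes in all. At an unadjusted p under 0.05, 9 of 40 were lower in SG, beside 5.15% of all genes, and in 10 of 40 every SG library lay below every DIO library, beside 9.74%.

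SG 1 and SG 2 pulled this comparison in opposite directions. Within SG, SG 1 held the highest level for 31 of 40 genes, beside 37.2% of all genes, and SG 2 the lowest for 33, beside 31.8%. SG 2 was the lowest of all 9 libraries for 19 of 40 genes, beside 11.2% of all genes. The mean log2 deviation of the 40 genes was 0.20 in SG 1, -0.37 in SG 2 and -0.08 in SG 3, so that SG 1 lay within the DIO range. Summed levels were 1040.2, 786 and 909 CPM. Without SG 1 the median against DIO was -0.36, with 39 of 40 genes below 0, beside 52.3% of all genes in that fit. At an unadjusted p under 0.05 there were 16, beside 5.57%, and 25 had groups that did not overlap, beside 17.6%, with 2 SG libraries left. Without SG 2 the median was -0.11, with 29 of 40 below 0, beside 49.7%, and 1 at an unadjusted p under 0.05, beside 2.92%. That number was 3 without DIO 1, beside 2.87%, and 5 without SG 3, beside 4.03%. The median coefficient of variation of the 40 genes was 20.4% in SG, 15.6% in control and 11% in DIO, beside 12.3%, 12.1% and 11.5% for all genes.

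Beside these values, SG 2 was the library with skeletal muscle and red blood cell markers. SG 3 held 254 CPM of red blood cell markers and SG 1 held 62.5 CPM. Of the 7 red blood cell markers Slc4a1 was at 0 in at least 1 library, and of the 8 skeletal muscle markers Myh4, Myh1, Myh2 and Tnni2 were. The part of these cells in the low values of SG 2 was not tested.

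By role, the medians against DIO were -0.46 for the OAS family, -0.45 for Rsad2 and Cmpk2, -0.42 for the IFIT genes, -0.21 for the membrane factors and -0.18 for the regulatory factors. The ISG15 group (-0.19), the PARP group (-0.15) and the sensors (-0.07) were smaller or similar in size. Without SG 2 these medians were -0.25 (OAS), -0.28 (Rsad2 and Cmpk2), -0.19 (IFIT), -0.09 (membrane), -0.09 (regulatory), -0.03 (ISG15), -0.05 (PARP) and 0.02 (sensors, with 4 of 6 above 0). Without SG 1 they were -0.67, -0.63, -0.77, -0.26, -0.23, -0.35, -0.18 and -0.22 in the same order. The sensor median was also 0.02 without DIO 2, and that of the ISG15 group was -0.10 without SG 3. Ifi27l2a had a log2 fold change of -0.99 (SE 0.21, adjusted p = 0.301), with every SG library below every DIO library. With 1 library left out, its value lay between -1.19 and -0.74 and its adjusted p between 0.0423 and 0.857. Irf7 was at -0.53 (SE 0.17, adjusted p = 0.453), Ifi35 at -0.28 (SE 0.09, adjusted p = 0.476) and Lgals3bp at -0.25 (SE 0.10, adjusted p = 0.516), all without overlap. Zbp1 (-1.07, SE 0.44, adjusted p = 0.528), Oas1a (-0.44, SE 0.19, adjusted p = 0.548) and Oas3 (-1.36, SE 0.57, adjusted p = 0.532) were also lower in every SG library. Bst2 was at -0.36 (SE 0.16, adjusted p = 0.548), and SG 3 lay inside its DIO range. Without SG 2, Bst2 was at -0.16, Lgals3bp at -0.12 and Oas3 at -0.89. This comparison shares the DIO libraries with the first, so high DIO values enter both with opposite sign.

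**Figure D4:**
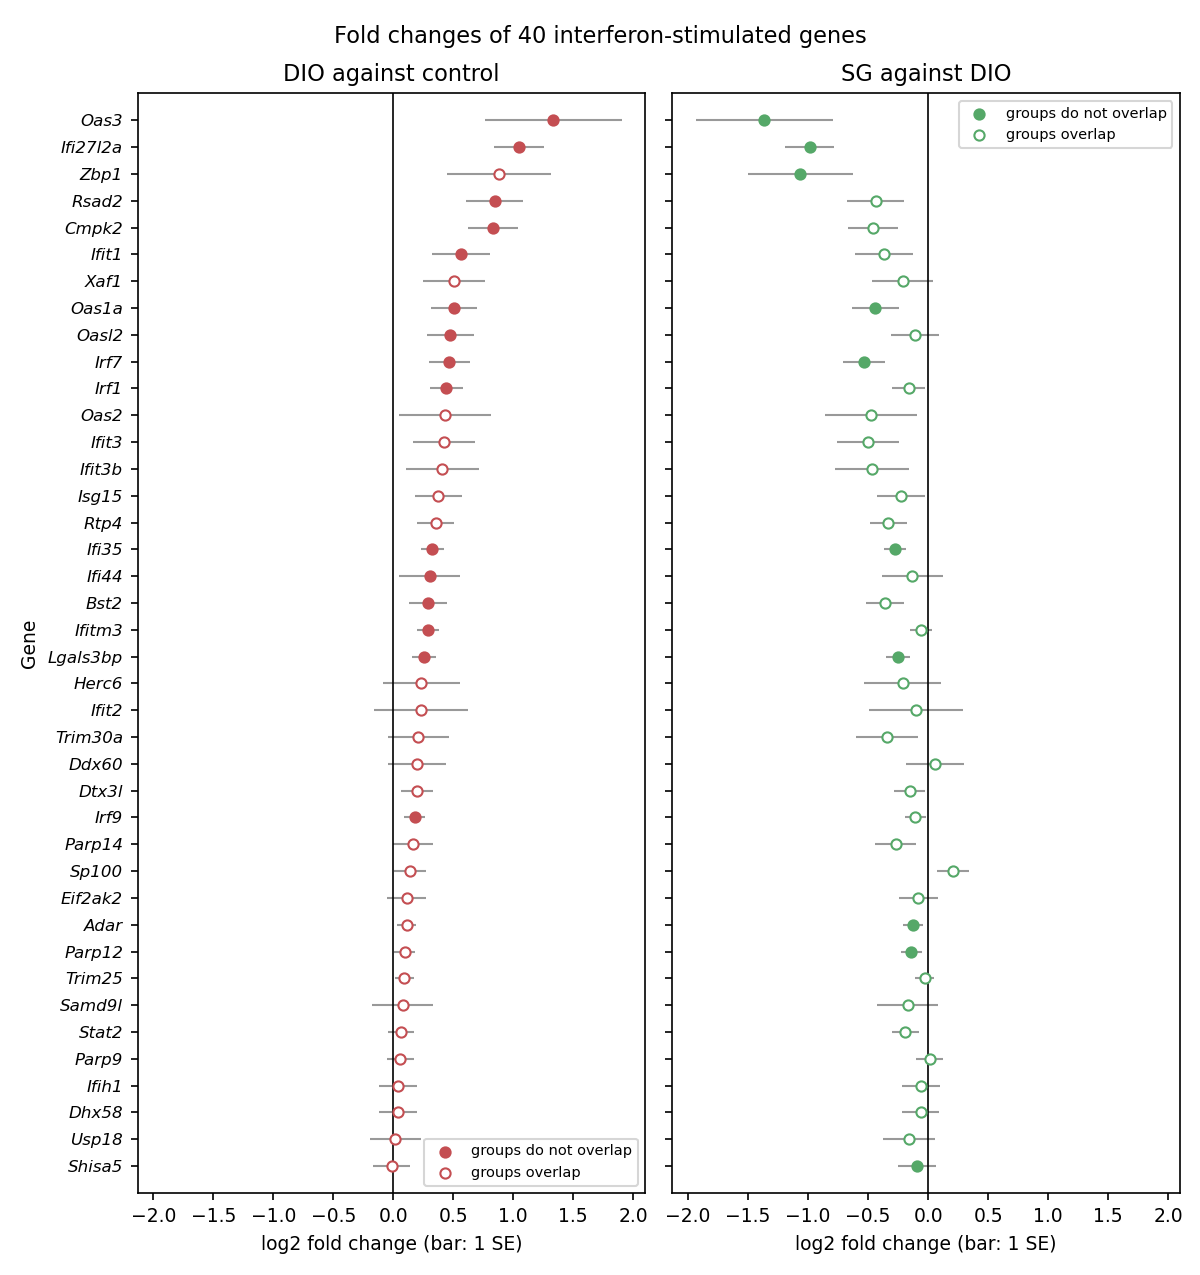
Log2 fold changes of 40 interferon-stimulated genes with 1 SE (bars) in DIO against control and SG against DIO, in the order of the first; filled points mark groups that do not overlap. All but Shisa5 lie above 0 on the left and all but Sp100, Ddx60 and Parp9 lie below 0 on the right, and none passed the adjusted test.

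The third comparison, SG against control, asks whether operated mice differed from lean mice. The 40 genes were spread around 0, with 23 above 0 (50.3% of all genes) and 17 below, a median of 0.03 beside 0.00123 for all genes, and a range of -0.19 to 0.41. None passed edgeR's quasi-likelihood test, beside 0% of all genes, and DESeq2 and limma-voom also called 0. At an unadjusted p under 0.05, 2 were higher in SG (Ifitm3 and Sp100), beside 3.47% of all genes. Sp100, a nuclear body protein named here after its values were seen, measured 79.5, 87 and 108 CPM in control and 137, 109 and 104 CPM in SG, and its groups overlapped. In 3 genes every SG library lay above every control library, beside 6.63% of all genes. They were Irf1 (log2 fold change 0.28, SE 0.14, adjusted p = 0.646), Cmpk2 (0.37, SE 0.21, adjusted p = 0.688) and Ifitm3 (0.23, SE 0.09, adjusted p = 0.59). The median depended on single libraries, at -0.08 without SG 1 with 12 of 40 genes above 0, beside 49.8% of all genes, and at 0.15 without SG 2 with 35 of 40 above 0, beside 48.7%. Without SG 2, 10 genes had every SG library above every control library, beside 10.1% of all genes. Cmpk2 was at 0.16 without SG 1 and Irf1 at 0.13 without control 3. At these errors the data do not show that the SG and control levels were alike.

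Set in order by group mean, DIO was highest for 36 of 40 genes, beside 35.3% of all genes, SG for 3 and control for 1. The order DIO, SG, control held for 20 genes and DIO, control, SG for 16. The 3 genes highest in SG were Sp100, Ddx60 and Parp9, and Shisa5 was highest in control. For most genes the libraries of SG and control, neighbours in this order, overlapped. Every SG library lay above every control library in 3 of 40 genes, beside 6.63% of all genes. With so few libraries, overlap does not show that the SG and control levels were alike.

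DIO was also set against the mean of control and SG. That comparison was chosen with earlier results of these data known and uses the same libraries, so it adds no independent support. The median log2 value was 0.24 beside 0.01 for all genes, and 39 of 40 genes were above 0, beside 52.4% of all genes. In edgeR's quasi-likelihood test 0 of 40 passed, beside 0.0536% of all genes. At an unadjusted p under 0.05, 13 were higher, beside 5.51%, and DESeq2 called 1, among 201 genes in all. Every DIO library lay above all 6 others in 6 genes, beside 3.02% of all genes. These were Ifi27l2a, Irf7, Oas1a, Oas3, Ifi35 and Lgals3bp. Ifi27l2a again had the smallest adjusted p, at a log2 value of 1.02 (SE 0.17, adjusted p = 0.0824). With 1 library left out, that adjusted p ran from 0.0109 (without control 2, where 369 genes passed in all) to 0.537 (without DIO 1). Ifi35 was at 0.30 (SE 0.08, adjusted p = 0.242).

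Genes with and without the ISRE core in the searched window had similar medians in DIO against control, and the difference was not tested. The 15 genes with a match had a median log2 value of 0.29, with 6 whose groups did not overlap. The 17 without a match had 0.23, with 8 such genes, where the share among all genes tested was 8.94%. Rsad2 and Oas1a had a match and Irf7 had none. The search kept the spacing of the core fixed, so a gene without a match can hold a near form, such as gaaacgaaact in Xaf1. The genes with no entry were Ifi27l2a, Oas2, Parp9, Dhx58, Parp14, Usp18, Zbp1 and Rtp4.

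The interferons themselves were barely seen. Of 18 ligand genes listed, 4 were in the table and none passed the low-count filter. Ifnb1 had 1 count in 1 library (DIO 3), Ifne 4 in SG 1, and Ifnz 4 in control 3 and 1 in DIO 1. Ifng, the interferon of T and NK cells, had 1, 0 and 1 counts in control libraries 1 to 3, 12, 3 and 4 in DIO, and 4, 0 and 0 in SG. Every DIO library had more Ifng counts than every control library, at few counts, and no ligand was tested.

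The 6 interferon receptor genes were split in DIO against control, 3 above and 3 below 0 with a median log2 value of 0.01, and none passed the test. The split moved with the scaling, to 2 above 0 with RLE size factors and 6 with library totals. The smallest p was that of Ifngr1 (0.25, SE 0.15, adjusted p = 0.596), a chain of the interferon gamma receptor, at 0.12 without control 3 and 0.44 without control 2. Of 7 JAK-STAT genes, 5 were above 0 with a median of 0.10, and none passed.

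Of the genes that sense nucleic acid upstream of interferon, 19 of 21 were tested, 16 were above 0 in DIO against control and 17 below 0 in SG against DIO, with medians of 0.22 and -0.40 and none past the test. Myd88, the adaptor of most Toll-like receptors, had the smallest p in the first (0.48, SE 0.12, adjusted p = 0.211). Negative regulators of the pathway were above 0 in 9 of 11 cases with a median of 0.12, none passed, and the count was 7 of 11 with RLE size factors. Ptpn1, a phosphatase that acts on JAK2 and TYK2, had the smallest p there (0.28, SE 0.10, adjusted p = 0.372).

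Genes best known as targets of interferon gamma had larger median differences than the 40 genes described here. Of 20 listed GTPases and chemokines 18 were tested. All 18 were above 0 in DIO against control, beside 51.7% of all genes, with a median log2 value of 0.71. At an unadjusted p under 0.05, 7 were higher in DIO, beside 5.22% of all genes. Only 1 passed the adjusted test, beside 0.0939% of all genes. In SG against DIO all 18 were below 0, beside 51% of all genes, with a median of -1.12. Of these, 14 were at an unadjusted p under 0.05, beside 5.15% of all genes, and none passed the adjusted test, beside 0%. The 1 gene that passed was Igtp (16145), a GTPase that acts on the membranes around intracellular microbes. It measured 11.6, 10.8 and 8.76 CPM in control, 24.2, 19.5 and 18 CPM in DIO, and 12.4, 11 and 9.85 CPM in SG. Igtp rose in DIO with a log2 fold change of 0.99 (SE 0.15, adjusted p = 0.0437 in edgeR's quasi-likelihood test), beside -0.89 for SG against DIO (SE 0.15, adjusted p = 0.116). The call was close to the threshold, with an adjusted p of 0.0502 in limma-voom and up to 0.258 with 1 library left out, and it held only without control 2 or without SG 1 among those 9 fits. Against the mean of control and SG, Igtp had a log2 value of 0.94 (SE 0.12, adjusted p = 0.0235), and that call was lost without control 1, any 1 DIO library, SG 2 or SG 3. Whether these 18 genes differed from the 40 was not tested.

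Whole glands hold epithelium, vessels and immune cells, and in such bulk RNA fewer cells of a type and less RNA per cell cannot be told apart. The immune cell markers also varied between libraries, and their relation to the interferon-stimulated genes was not tested. Summed over 12 of 12 pan-leukocyte markers, control libraries held 451 to 711 CPM, DIO libraries 511 to 547 CPM and SG libraries 464 to 492 CPM. The 17 of 17 macrophage and dendritic cell markers summed to 186 to 419 CPM for control, 295 to 385 CPM for DIO and 226 to 330 CPM for SG. For 15 of 16 T and NK cell markers the ranges were 10.8 to 70.8, 27.3 to 44.1 and 12.9 to 17 CPM. The 11 of 11 B cell markers summed to between 1.01 and 150 CPM in control, 19.2 and 53.6 in DIO, and 4.88 and 9.36 in SG, with Cr2, Fcer2a and Pax5 at 0 in at least 1 library. Markers of plasmacytoid dendritic cells, the specialist producers of type I interferon, added up to 3.22 to 20.8 CPM in control libraries, 4.85 to 7.97 CPM in DIO libraries and 2.39 to 2.94 CPM in SG libraries, over 5 of 5 genes with Cox6a2 at 0 in at least 1 library. The upper end of each of these control ranges was control 2. Without it, both control libraries left (1 and 3) lay below every DIO library in each list. They held 487 and 451 CPM of pan-leukocyte, 238 and 186 CPM of macrophage and dendritic cell, and 16.8 and 10.8 CPM of T and NK cell markers. For B cell markers they held 11.4 and 1.01 CPM, and for plasmacytoid dendritic cell markers 3.64 and 3.22 CPM.

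In SG every T and NK cell and every B cell sum lay below every DIO sum, as did the pan-leukocyte sums. The part of these cells in the lower interferon-stimulated genes of SG was not tested. In DIO libraries 1 to 3 the mean deviation was 0.56, 0.51 and 0.14 for pan-leukocyte markers and 1.07, 0.96 and 0.31 for T and NK cell markers, in the same order as the 0.35, 0.21 and 0.10 of the 40 genes. Control 2 had the highest mean pan-leukocyte deviation of all (1.18) and an interferon-stimulated mean of -0.12. SG 1 had the lowest pan-leukocyte mean in SG (-0.54) and the highest interferon-stimulated mean (0.20). In control, the values for pan-leukocyte markers were -0.34, 1.18 and -0.95, where those of the 40 genes spanned -0.22 to -0.05.

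Markers of other cells also differed between groups. Parotid acinar markers, from the neighbouring salivary gland, were found for 5 of 6 genes and summed to 58390 to 63935 CPM for control libraries, 40187 to 55185 for DIO libraries and 46319 to 65931 for SG libraries, with Prb1 and Prpmp5 at 0 in at least 1 library. Every DIO sum lay below every control sum. All 5 were below 0 in DIO against control (median log2 value -4.88) and above 0 in SG against DIO (median 2.04), with none past the test. Their mean deviation was 2.22, 3.92 and 0.94 in control libraries 1 to 3, -0.25, -2.82 and -0.94 in DIO, and 1.95, -3.23 and -1.79 in SG. On this summary SG 1 was high and SG 2 low, as for the 40 genes. The sums did not follow it, at 46319, 54847 and 65931 CPM in SG libraries 1 to 3. Sums follow the most abundant genes, and the log2 fold changes of the 5 genes ran from -5.57 to -0.24 in DIO against control. The sums thus do not give the share of parotid tissue. The 12 of 12 endothelial markers summed to 172 to 225 CPM for control libraries, 157 to 168 for DIO libraries and 162 to 218 for SG libraries, with 11 of 12 below 0 in DIO against control (median -0.27), 11 of 12 above 0 in SG against DIO (median 0.28) and none past the test. The part of parotid and endothelial cells in the differences of the 40 genes was not tested.

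Red blood cell markers summed to 43.3 to 66.3 CPM for control libraries, 66.7 to 127 for DIO libraries and 62.5 to 402 for SG libraries. Every DIO sum lay above every control sum, by a narrow margin. All 6 that were tested were above 0 in DIO against control (median log2 value 0.83) and in SG against DIO (median 1.235), with none past the test. The ranges of adipocyte, plasma cell and fibroblast markers overlapped between control and DIO and between DIO and SG. Adipocyte markers (10 of 10 genes, Plin1 and Adrb3 at 0 in at least 1 library) summed to 36.9 to 149 CPM for control libraries, 35.6 to 55.5 for DIO libraries and 37.3 to 61.8 for SG libraries. Plasma cell markers (8 of 8, Tnfrsf17 at 0 in at least 1 library) summed to 804 to 905, 886 to 922 and 738 to 969 CPM, and fibroblast markers (8 of 8) to 306 to 355, 277 to 395 and 230 to 348 CPM, in the same order. Their part in the results was not tested.

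**Figure D5:**
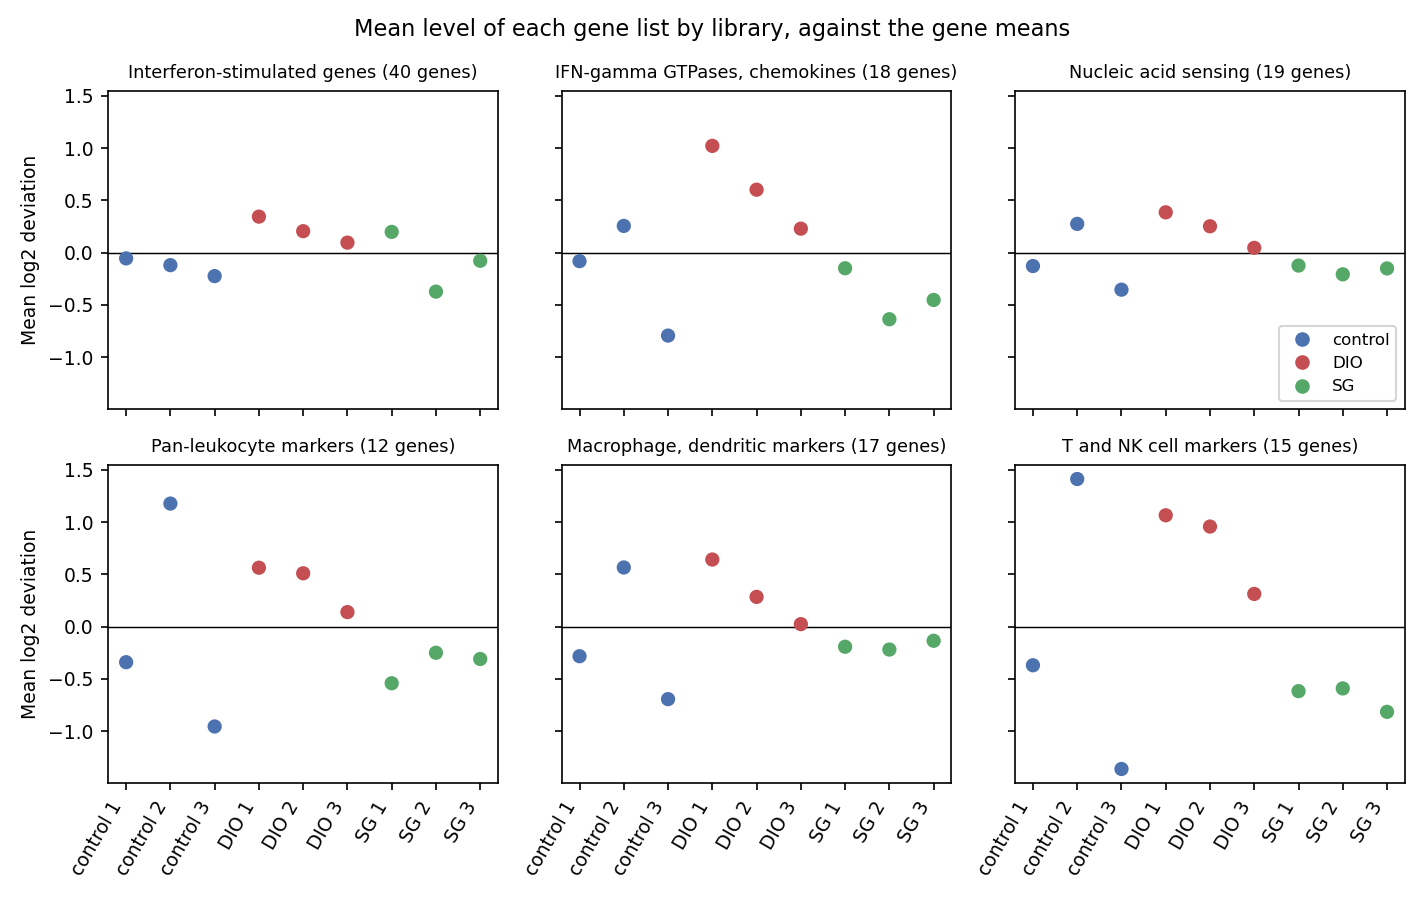
Mean log2 deviation of each gene list from its gene means (vertical axis) in the 9 libraries, for the 40 interferon-stimulated genes, 2 other interferon lists and 3 marker lists. Control 2 is high for leukocyte markers (1.18) and not for interferon-stimulated genes (-0.12), and SG 1 and SG 2 are apart for interferon-stimulated genes (0.20 and -0.37).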

How the data were processed

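Polyadenylated RNA from 9 libraries was sequenced from VAHTS Universal V6 kits, per the labels' protocols. HISAT2, Salmon and GRCm39 are listed in the submitters' processing notes. For the roles, versions, annotation, strand setting and multi-mapped reads nothing is given in the sources used here. As main data the authors deposited whole-number read counts per gene, unscaled, and FPKM values per gene. For 168650 nonzero values the gene length implied by count and FPKM was within 0.1% of the gene's median in 100% of cases.

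Each comparison used edgeR 4.0.16 (R 4.3.3): the quasi-likelihood test on counts, TMM scaling, edgeR's low-count filter by group, and 1 fit of 9 libraries in 3 groups. P-values were adjusted by Benjamini-Hochberg over 14912 genes, at a threshold of 0.05. Adjusted p-values of genes are edgeR's where no other tool is mentioned. SE is the log2 fold change divided by the square root of F. Script behaviour was tested on simulated data. DESeq2 1.42.0, limma 3.58.1 (voom, and log2 of FPKM plus 0.1 or 1), other scalings and filters, a replicate block and leaving out each library were alternatives.

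The members and lists were chosen with earlier results of these data known. Values, or ranges for some, are given for a panel chosen by role, for members called in any comparison, for the 8 with the smallest p in DIO against control and for the extremes of each role group, and for pathway lists the gene with the smallest p and any gene called. No 2 libraries of a group had identical values. Promoters came from RefSeq tables of GRCm38.p6. A result for 1 gene of the pathway lists is not reported here.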

Additional observations from a re-analysis of the deposited data

How the results depend on the processing

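With edgeR's quasi-likelihood test 0 of 40 interferon-stimulated genes passed in each comparison. DESeq2 called 2 in DIO against control, while SG against DIO had 1 and so had DIO against the mean of control and SG (1), among 194, 86 and 201 genes in all. Without a low-count filter 1 passed in DIO against control (among 37 genes in all) and 1 against the mean (among 42). With library totals 1 passed against the mean (among 25), and with only the 2 groups compared 1 passed in SG against DIO (among 179). Each of these was Ifi27l2a, plus Cmpk2 in DESeq2. With 1 library left out, 0 to 1 passed in these 3 comparisons and 0 to 0 in SG against control. In DIO against control the 1 passed without SG 2, among 10 genes in all. In SG against DIO and against the mean it passed without control 2, among 117 and 369 genes in all. Over the fits with 1 library left out, medians ran from 0.17 to 0.32 (DIO against control) and from -0.36 to -0.11 (SG against DIO). They ran from -0.08 to 0.15 (SG against control) and from 0.15 to 0.33 (DIO against the mean).

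Replicate numbers are shared between groups, and the labels name no shared batch. Correlations of the deviations of same-numbered libraries were -0.09, 0.11 and 0.31 between control and DIO, 0.08, -0.02 and 0.06 between control and SG, and 0.20, 0.08 and 0.04 between DIO and SG. Since not every pair was over 0.1 in any set, the numbers were not taken as pairs, though all 3 between DIO and SG were above 0. With the replicate block 1 of the 40 genes (Ifi27l2a) passed in DIO against control, among 18 genes in all. Against the mean the same gene passed, among 16 genes in all. Not every library correlated best with its own number.

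The sign of Usp18 in DIO against control turned with DESeq2 (-0.00265), RLE size factors (-0.00202) and no filter (-0.00128). That of Shisa5 turned with library totals (0.0699), the replicate block (0.0153), limma-voom (0.0222) and log2 FPKM plus 0.1 (0.115) or 1 (0.111). With 1 library left out, the number of genes above 0 in SG against control ran from 12 to 35, and in DIO against control Dhx58 ran from -0.0998 to 0.15, Ifih1 from -0.0659 to 0.13, Ifit2 from -0.11 to 0.53, Shisa5 from -0.14 to 0.22, Stat2 from -0.0224 to 0.13 and Usp18 from -0.20 to 0.21. The cause was not tested. Library totals moved the median of all genes to 0.10 in DIO against control, beside 0.36 for the 40 genes. With 3 libraries a group and these depths, genes such as Oas3 have wide errors.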
